A study of Mus musculus with 6 samples.

Results

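The 37 autophagy and lysosome genes described here were chosen by name and found by their Ensembl identifiers in GENCODE M21, out of 55335 genes counted in each of 6 RNA-seq libraries. They comprise 23 genes of the autophagy core, 3 genes of autophagy receptors, the 2 transcription factor genes Tfeb and Tfe3, and 9 lysosomal genes. All 37 were among the 13642 genes that passed the filter on low counts. The libraries were poly(A)-selected RNA of B16-BL6 cells, a mouse melanoma line, with 3 scrambled control cultures and 3 IFNγR1KO cultures. Scrambled control cells, whose genotype the labels give as WT, carried lentiCRISPR v2 with a guide against GFP, and IFNγR1KO cells carried the same vector with a guide against Ifngr1. Both lines had been selected with puromycin, and the cultures were seeded overnight as triplicates with no IFN-γ added. The IFNγR1KO cells were grown from single clones, and whether the 3 cultures came from the same clone is not stated. Any p-value below therefore measures the spread between these cultures only, and a difference between clones cannot be told apart from an effect of the deletion.

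Autophagy is the route by which a cell encloses part of its cytoplasm in a double membrane, the autophagosome, and delivers it to the lysosome. The ULK1 complex starts the process, a PI3-kinase complex marks the membrane with PI3P, 2 ubiquitin-like conjugation systems attach the Atg8 proteins (LC3 and GABARAP) to the membrane, and receptors such as SQSTM1 bind both the cargo and the Atg8 proteins. Hydrolases in the acid lumen of the lysosome then break the cargo down, and TFEB and TFE3 are the transcription factors best known for inducing lysosomal and autophagy genes. mTOR complex 1 is known to restrain both the ULK1 complex and TFEB by phosphorylation, a level of control that transcript counts do not measure.

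The IFNγR1KO libraries held 6698956 to 7409479 counts on genes and the scrambled control libraries 9402640 to 10579788, so that every IFNγR1KO library was the shallower. Ifngr1 itself had 14.3 to 16.7 CPM in scrambled control and 11.4 to 11.5 CPM in IFNγR1KO libraries (log2 fold change -0.47, adjusted p = 0.0729). A small Cas9 deletion need not lower the transcript, so this level does not check the labels. CPM is the read count of a gene relative to the total of the tested genes, corrected by the TMM factor of the library. All 7 melanocyte markers were detected in every library. Their sum lay between 31716 and 34659 CPM in the control and between 27898 and 32830 CPM in the IFNγR1KO libraries, and 0 of the 7 were called. The 5 leukocyte markers summed to 13.2 to 14.2 CPM and 11.0 to 11.9 CPM respectively, with Adgre1 and Cd3e at 0 in every library and Ptprc at 0 in all but 1. The 5 fibroblast markers summed to 4.38 to 5.97 CPM and 6.25 to 8.72 CPM, of which Col1a1 was called higher in IFNγR1KO (1.06 to 1.74 against 3.84 to 6.61 CPM), with Lum and Thy1 at 0 throughout. In bulk RNA a change in the number of cells of a type cannot be told apart from a change in RNA per cell, and the part of these markers in the results was not tested. The endothelial and keratinocyte markers stayed at or under 0.326 CPM in sum.

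In IFNγR1KO cells 6 of the 37 genes were higher and 0 were lower at an adjusted p under 0.05 (quasi-likelihood test of edgeR, adjusted by Benjamini-Hochberg over all tested genes). The 6 were Atg13 and Rb1cc1 of the ULK1 complex, the receptor genes Nbr1 and Optn, the lysosomal calcium channel gene Mcoln1 and the protease gene Ctsl. They make up 16.2% of the members, where 7.73% of all tested genes were called higher and 7.62% were called lower. With 1 library left out the count of members called higher was 2 to 7, and DESeq2 called 7 higher and 1 lower. Every one of the 6 differed by less than 2-fold. None of the 37 was a DEG, defined in the study as an adjusted p under 0.05 with an absolute log2 fold change above 1, against 5.20% of all tested genes. The log2 fold change was above 0 in 25 members and below 0 in 12, with a median of 0.10, and over all tested genes 49.8% were above 0 with a median of -0.0015. At an unadjusted p under 0.05 there were 10 members, namely the 6 above with Atg12, Atg14, Sqstm1 and Ctsd.

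A count of members whose libraries did not overlap gave a similar split. All 3 IFNγR1KO libraries lay above all 3 scrambled control libraries for 11 members (29.7%), a pattern found in 16% of all tested genes. They lay below for 4 members (10.8%), against 16.6% of all tested genes. The 11 were the 6 called genes with Atg14, Wipi2, Sqstm1, Tfe3 and Ctsa, and the 4 were Atg16l1, Lamp1, Ctsb and Ctsd. For the other 22 members the groups overlapped.

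**Figure D1:**
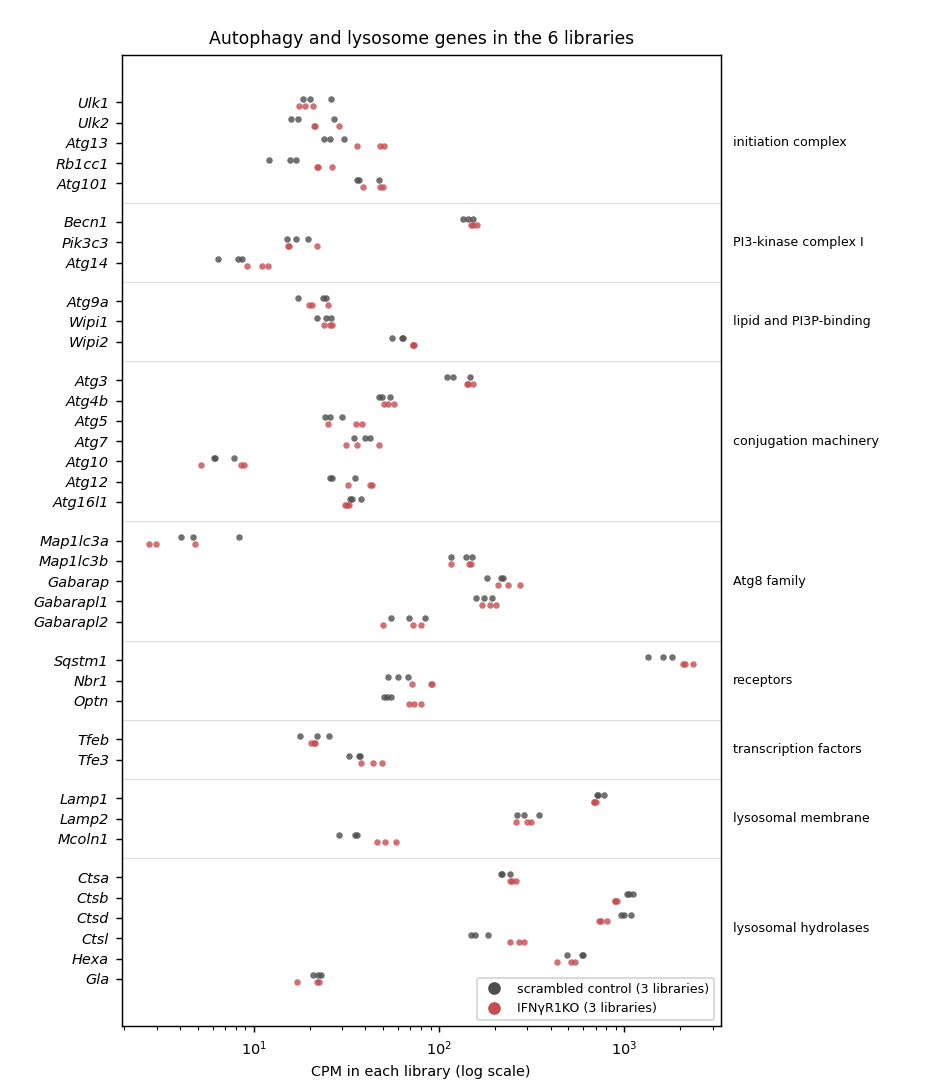
Each point is the level of 1 gene in 1 library in CPM on a log scale, in rows by role, with scrambled control libraries in grey and IFNγR1KO libraries in red. The levels span Map1lc3a, with a scrambled control mean of 5.69 CPM, to Sqstm1 at 1584 CPM, and the red points lie clear of the grey ones to the right in 11 rows and to the left in 4.

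Levels between genes were compared as CPM per kilobase of exonic length. On that scale Sqstm1 was the highest of the 37 in both groups, at 472 CPM per kilobase in scrambled control and 655 in IFNγR1KO. The lysosomal genes Ctsd (431 and 325 CPM per kilobase), Hexa (281 and 248), Lamp1 (276 and 259) and Ctsb (178 and 149) took the next 4 ranks in both groups, with Hexa and Lamp1 changing places. Rb1cc1 was the lowest at 1.01 and 1.61 CPM per kilobase, followed by Atg14 at 1.80 and 2.48. The 4 most abundant lysosomal transcripts thus had mean levels below scrambled control, whereas Sqstm1 had a mean level above it, and none of these 5 differences passed the test.

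Promoter sequences of the members are shown because TFEB and TFE3 bind a known element, the CLEAR element, whose core is the palindrome CACGTG and whose longer form is TCACGTGA. Windows of 300 bases, 250 before and 50 after a RefSeq start (GRCm38.p6), matched 30 of the 37 members by symbol, with none for Rb1cc1, Becn1, Pik3c3, Atg12, Atg16l1, Map1lc3a and Ctsb. For 6 members the RefSeq start lay well inside the gene as GENCODE draws it, by 370 bases for Ctsl, 578 for Wipi1, 1886 for Wipi2, 2215 for Atg14, 3405 for Atg4b and 27999 for Atg7, so that these windows may not be the main promoter. Ctsa had 2 windows, 1 at the start of the gene and 1 whose RefSeq start lay 900 bases inside it. All matches given for Ctsa lay in the inner window, which likewise may not be the main promoter. Both strands were searched. CACGTG, which lies inside TCACGTGA, was present for 10 of the 30 members (33.3%) and for 8.09% of the 27025 genes with a window. The 10 included Ctsl, Atg14 and Atg7 with their inner starts, and Ctsa through its inner window. TCACGTGA was present for 5 of the 30 (16.7%), namely Mcoln1, Ctsa, Ctsd, Atg3 and Gla, and for 1.12% of all genes. Of these 5 Mcoln1 was called higher. The members were chosen by name as lysosomal and autophagy genes, a class that TFEB and TFE3 are known to induce. The higher shares of both motifs may therefore reflect that choice, and they were not tested. The genes with a window also include genes that were not tested here. The stretches around the matches follow, with 30 bases on either side where the window allows, written 5′ to 3′ on the strand of the gene with TCACGTGA in capitals.
Mcoln1, chr8:3500443-3500510 (+): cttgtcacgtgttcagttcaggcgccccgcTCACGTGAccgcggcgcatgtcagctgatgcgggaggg
Ctsa, chr2:164833730-164833814 (+): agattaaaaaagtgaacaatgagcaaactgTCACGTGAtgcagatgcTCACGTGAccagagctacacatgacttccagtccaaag
Ctsd, chr7:142387889-142387956 (-): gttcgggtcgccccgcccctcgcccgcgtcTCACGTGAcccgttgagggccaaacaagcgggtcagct
Atg3, chr16:45158727-45158794 (+): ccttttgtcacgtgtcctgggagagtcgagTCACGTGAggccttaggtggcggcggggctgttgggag
Gla, chrX:134601163-134601255 (-): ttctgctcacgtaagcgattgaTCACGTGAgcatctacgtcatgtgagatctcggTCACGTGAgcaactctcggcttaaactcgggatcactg

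The match of Mcoln1 began 46 bases before the RefSeq start, that of Atg3 72 bases before it and that of Ctsd 99 bases before it. Ctsa, in its inner window, and Gla each held a pair of matches. The 5 genes did not move as a group, since their log2 fold changes ran from -0.41 for Ctsd through -0.10 for Gla, 0.15 for Ctsa and 0.21 for Atg3 to 0.63 for Mcoln1. Lamp1 carried the most copies of the shorter CACGTG, 4 within the 61 bases before its start, and is shown with these in capitals.
Lamp1, chr8:13159070-13159181 (+): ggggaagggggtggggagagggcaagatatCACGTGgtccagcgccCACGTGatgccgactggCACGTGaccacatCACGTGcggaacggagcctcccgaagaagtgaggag

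Among the other called members, Atg13, Nbr1 and Optn had no CACGTG in their windows, Ctsl had 1, at 236 bases before its RefSeq start, and Rb1cc1 had no window. TGATGNAA, the core of the element that ATF4 binds, was found for 1 of the 30 members (3.33%), Ctsl in that same window, and for 4.51% of all genes. TGACNNNGC, the core of the antioxidant response element, was found for 5 members (16.7%) and for 14.0% of all genes, and of the 5 only Atg13 was called. A match describes the letters of the window and was not tested as a binding site.

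Of the 5 genes of the ULK1 complex, 2 rose in IFNγR1KO cells. Atg13 (ENSMUSG00000027244.14, chromosome 2 of GRCm38 from 91674618 to 91710576) encodes the adaptor that mTOR complex 1 phosphorylates. It had 24.0, 25.8 and 30.8 CPM in scrambled control replicates 1 to 3 and 48.0, 36.0 and 50.5 CPM in IFNγR1KO replicates 10 to 12. The groups did not overlap, the nearest libraries being scrambled control 3 and IFNγR1KO 11. Atg13 had a log2 fold change of 0.74 ± 0.17 (SE, adjusted p = 0.0109), the largest of the 37, and without scrambled control 2 the adjusted p was 0.0631.

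Rb1cc1 (ENSMUSG00000025907.14, chromosome 1 from 6206197 to 6276648) encodes FIP200, the scaffold of the complex. It had 15.6, 12.0 and 16.9 CPM in scrambled control and 22.0, 22.2 and 26.6 CPM in IFNγR1KO libraries. Again every IFNγR1KO library was above every scrambled control library. Rb1cc1 had a log2 fold change of 0.67 ± 0.17 (SE, adjusted p = 0.0227), with an adjusted p of 0.0936 without scrambled control 2 and of 0.0588 without IFNγR1KO 11.

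Ulk1 (chromosome 5 from 110784488 to 110810097), the gene of the kinase, had 20.0, 18.5 and 26.0 CPM in scrambled control and 17.6, 18.8 and 20.8 CPM in IFNγR1KO. The groups overlapped, with a log2 fold change of -0.17 and a 95% interval of -0.55 to 0.20. Its paralog Ulk2 had a log2 fold change of 0.23 (adjusted p = 0.532) and Atg101, which stabilizes ATG13, one of 0.18 (adjusted p = 0.496).

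None of the 3 genes of PI3-kinase complex I and none of the 3 genes for lipid supply and PI3P binding passed the test. Becn1, which encodes the regulatory subunit Beclin 1, had 135, 153 and 143 CPM in scrambled control and 149, 161 and 152 CPM in IFNγR1KO libraries. The groups overlapped, with a log2 fold change of 0.10 and a 95% interval of -0.18 to 0.38. Pik3c3, the gene of the lipid kinase VPS34, differed by 0.027 on the log2 scale (adjusted p = 0.948).

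Atg14, whose product directs the kinase complex to the site where autophagosomes form, was the gene of this complex that differed most. It averaged 7.76 ± 1.19 CPM in the scrambled control and 10.7 ± 1.43 CPM in the IFNγR1KO libraries (SD, n = 3), and the groups did not overlap. Its log2 fold change was 0.46 (adjusted p = 0.145). Wipi2, which binds PI3P and recruits ATG16L1, also did not overlap between groups, at 60.7 ± 4.39 CPM against 72.4 ± 0.505 CPM (SD, n = 3), with a log2 fold change of 0.26 (adjusted p = 0.206). Atg9a, the gene of a lipid scramblase, and Wipi1 differed by 0.0055 and 0.064 on the log2 scale.

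Among the 7 genes of the conjugation machinery 0 passed the test, and the log2 fold changes ran from -0.13 to 0.43. The gene with the largest difference was Atg12, which encodes the ubiquitin-like protein joined to ATG5. It averaged 29.1 ± 5.17 CPM in the scrambled control and 39.3 ± 6.03 CPM in the IFNγR1KO libraries (SD, n = 3), with a 95% interval of 0.063 to 0.80 on the log2 scale. Atg5, the acceptor of ATG12, had a log2 fold change of 0.31 (adjusted p = 0.271). Both Atg12 and Atg5 were called higher when IFNγR1KO 12 was left out, at adjusted p of 0.0229 and 0.0465. That library had the lowest IFNγR1KO level of each, 32.3 CPM for Atg12 and 25.0 CPM for Atg5, and without it the calls over all tested genes went from 2093 to 2824. Atg16l1, which sets the site of LC3 lipidation together with ATG12 and ATG5, had the lowest fold change of the group, at 34.8 ± 2.60 CPM against 31.8 ± 0.839 CPM (SD, n = 3) with no overlap and an adjusted p of 0.580. For the enzyme genes the log2 fold changes were -0.024 for Atg7 (E1-like), 0.21 for Atg3 and 0.17 for Atg10 (both E2-like), and 0.087 for the protease gene Atg4b.

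The 5 genes of the Atg8 family, whose products coat the autophagosome, overlapped between the groups without exception. Map1lc3b, which encodes the commonly used autophagosome marker LC3B, had 151, 140 and 116 CPM in scrambled control and 149, 145 and 116 CPM in IFNγR1KO libraries. The ranges were nearly the same, and the log2 fold change was 0.0095 with a 95% interval of -0.32 to 0.34. The 3 GABARAP genes gave 0.21 for Gabarap, 0.093 for Gabarapl1 and -0.042 for Gabarapl2. Map1lc3a, the gene of LC3A, had the lowest fold change of the 37 at -0.71, but at 5.69 ± 2.33 CPM against 3.50 ± 1.16 CPM (SD, n = 3) it was also the least counted, with as few as 20 counts in a library, and its interval ran from -1.43 to 0.014.

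All 3 receptor genes were higher in every IFNγR1KO library than in every scrambled control library, and 2 of the 3 passed the test. Over all tested genes the shares were 16% and 7.73%. The 15 other tested receptor genes did not share this pattern. For 4 of them every IFNγR1KO library was above, for 2 every one was below, and 9 overlapped, with 1 called higher and 1 lower. Optn (ENSMUSG00000026672.11, chromosome 2 from 5020642 to 5064051) encodes optineurin, a receptor for damaged mitochondria and bacteria. It had 50.3, 52.2 and 54.8 CPM in scrambled control and 73.6, 68.4 and 79.6 CPM in IFNγR1KO libraries. The 2 ranges were separated by more than the spread within either group, and the log2 fold change was 0.49 ± 0.13 (SE, adjusted p = 0.0225). Leaving out 1 library kept Optn under the threshold in 2 of 6 fits, those without scrambled control 3 or IFNγR1KO 12, and the adjusted p was 0.0715 and 0.0752 without scrambled control 1 and 2, and 0.0811 and 0.0561 without IFNγR1KO 10 and 11.

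Nbr1 (ENSMUSG00000017119.19, chromosome 11 from 101552149 to 101581951) encodes a receptor that works together with SQSTM1 on ubiquitinated cargo. It had 53.2, 60.2 and 68.0 CPM in scrambled control and 91.6, 71.4 and 90.8 CPM in IFNγR1KO libraries. IFNγR1KO 11 lay just above scrambled control 3. Nbr1 had a log2 fold change of 0.48 ± 0.15 (SE, adjusted p = 0.0465), and its adjusted p stayed under 0.05 only when scrambled control 3 was the library left out, with 0.151 and 0.136 without scrambled control 1 and 2 and 0.178, 0.0507 and 0.0622 without IFNγR1KO 10, 11 and 12.

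Sqstm1, the gene of the receptor p62, lies on chromosome 11 from 50199366 to 50210827. It had 1336, 1801 and 1614 CPM in scrambled control and 2140, 2083 and 2367 CPM in IFNγR1KO libraries. No library of one group reached the other, and scrambled control 1 was the farthest from the rest of its group. Its log2 fold change of 0.47 ± 0.17 (SE) was close to those of Nbr1 and Optn, but its adjusted p of 0.0765 missed the threshold. With DESeq2's Wald test the adjusted p of Sqstm1 was 0.0215, and with library totals as the only scaling it was 0.0436.

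**Figure D2:**
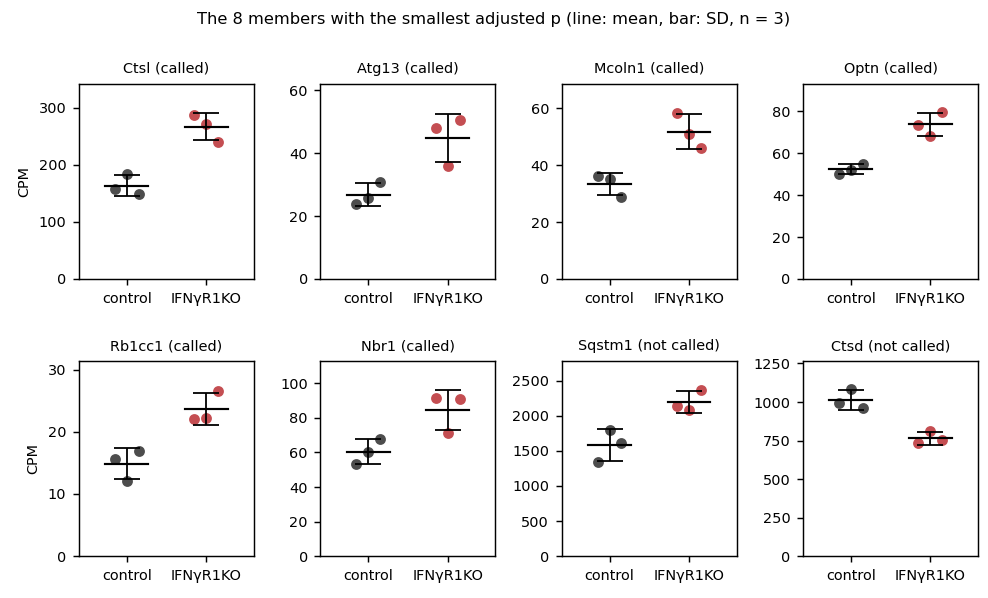
Levels in CPM of the 8 members with the smallest adjusted p, with a point per library, a line at the mean and a bar for the SD of the 3 libraries of a group. In the 6 called genes and in Sqstm1 every IFNγR1KO point lies above every scrambled control point, and in Ctsd every one lies below.

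Neither Tfeb nor Tfe3 passed the test. Tfeb (chromosome 17 from 47737030 to 47792419) had 17.7, 25.4 and 21.9 CPM in scrambled control and 20.3, 21.1 and 21.5 CPM in IFNγR1KO libraries. The IFNγR1KO values fell inside the scrambled control range, with a log2 fold change of -0.047 and a 95% interval of -0.41 to 0.31. Tfe3 had 35.7 ± 2.64 CPM against 43.7 ± 5.72 CPM (SD, n = 3) without overlap, and its log2 fold change of 0.29 had an adjusted p of 0.210.

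The 9 lysosomal genes did not move together: 2 rose, 6 of the other 7 had log2 fold changes below 0, and the median was -0.10. Of the 3 membrane protein genes, Mcoln1 (ENSMUSG00000004567.16, chromosome 8 from 3500457 to 3515232) encodes TRPML1, the channel that releases calcium from the lysosome. It had 36.1, 35.1 and 28.9 CPM in scrambled control and 58.2, 51.1 and 46.1 CPM in IFNγR1KO libraries. Every IFNγR1KO library was above every scrambled control library. Mcoln1 had a log2 fold change of 0.63 ± 0.15 (SE, adjusted p = 0.0135), with 0.0748 without IFNγR1KO 10 and 0.0529 without IFNγR1KO 11.

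Lamp1 and Lamp2 encode the most abundant glycoproteins of the lysosomal membrane. Lamp1 had 711, 782 and 726 CPM in scrambled control and 704, 689 and 683 CPM in IFNγR1KO libraries. The IFNγR1KO libraries were all lower, by a margin smaller than the scrambled control spread, with a log2 fold change of -0.10 and a 95% interval of -0.40 to 0.20. That of Lamp2 was -0.046 (interval -0.37 to 0.28).

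The cathepsin genes differed from one another in direction. Ctsl (ENSMUSG00000021477.9, chromosome 13 from 64359337 to 64370890), which encodes the cysteine protease cathepsin L, had 157, 185 and 149 CPM in scrambled control and 288, 272 and 241 CPM in IFNγR1KO libraries. The lowest IFNγR1KO library exceeded the highest scrambled control library. At 0.71 ± 0.14 on the log2 scale (SE, adjusted p = 0.00603), Ctsl had the smallest adjusted p of the 37 and was the one member that stayed under 0.05 with each library left out in turn, at adjusted p of 0.000886 to 0.0364.

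Ctsd (chromosome 7 from 142375911 to 142388038), the gene of the aspartic protease cathepsin D, had 995, 1083 and 963 CPM in scrambled control and 731, 812 and 751 CPM in IFNγR1KO libraries. All IFNγR1KO libraries were lower and the groups were well apart. Its log2 fold change of -0.41 ± 0.14 (SE) had an adjusted p of 0.0775 in edgeR and of 0.0108 in DESeq2. Ctsb, the gene of cathepsin B, likewise did not overlap, at 1074 ± 44.6 CPM against 900 ± 10.9 CPM (SD, n = 3), with a log2 fold change of -0.26 (adjusted p = 0.262).

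The remaining hydrolase genes passed no test. Ctsa, whose product protects β-galactosidase and neuraminidase in the lysosome, had 226 ± 13.9 CPM and 250 ± 9.23 CPM (SD, n = 3) and did not overlap, with a log2 fold change of 0.15 (adjusted p = 0.515). Hexa, which encodes the α subunit of β-hexosaminidase, and Gla, which encodes α-galactosidase A, had log2 fold changes of -0.18 and -0.10 (adjusted p = 0.487 and 0.746).

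**Figure D3:**
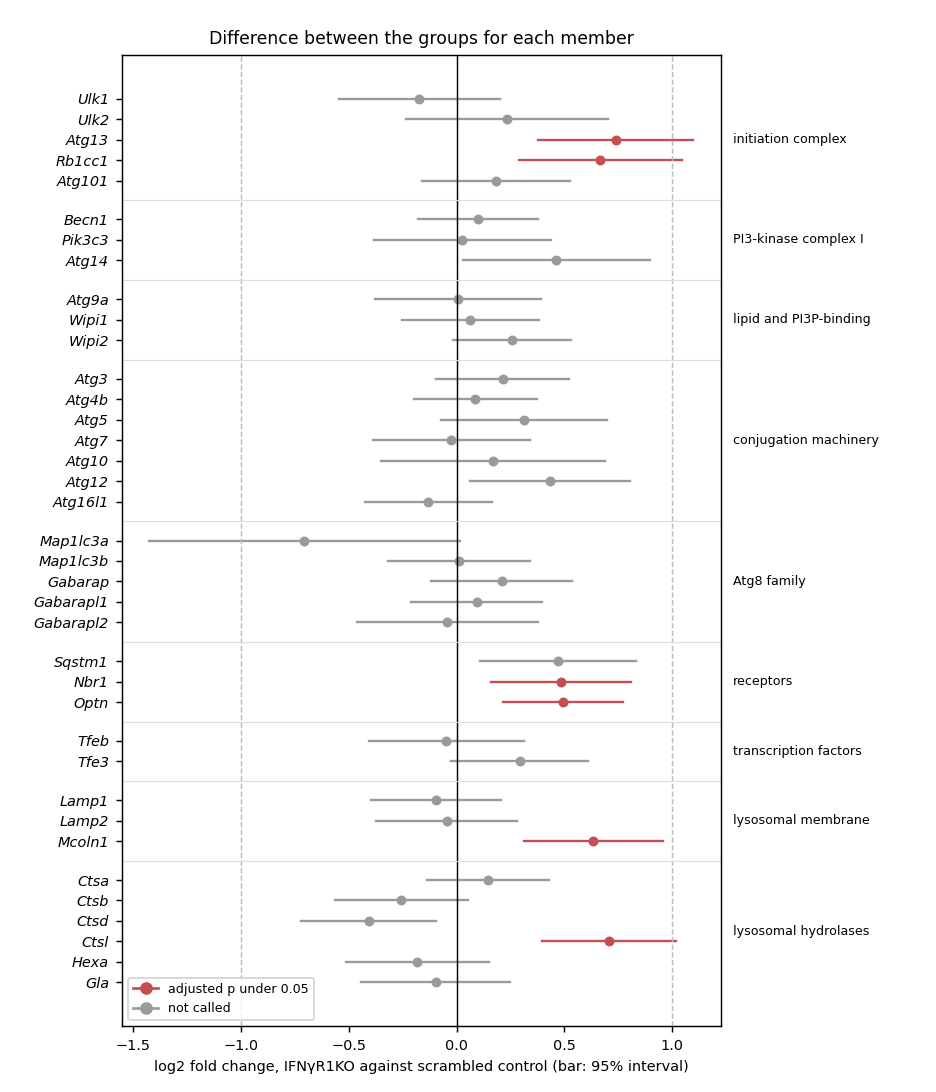
Log2 fold change of each member, IFNγR1KO against scrambled control, with its 95% interval as a bar, called genes in red and dashed lines at a change of 1 in size. The 6 red points are spread over the rows of the initiation complex, receptors, lysosomal membrane and hydrolases, and all of them lie between 0.48 and 0.74.

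The 95% intervals of the 37 log2 fold changes reached 0.27 to 0.72 to either side, with a median of 0.33. For 33 members the interval stayed within a change of 1 in size in both directions, and it reached beyond 1 for Atg13, Rb1cc1, Map1lc3a and Ctsl. Of the 31 members that were not called, 15 had an interval within 0.5 in size, so that a larger difference was outside it. For 4 members that were not called, Atg12, Atg14, Sqstm1 and Ctsd, the interval excluded 0.

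Activation of the ATF4 and CHOP (Ddit3) transcription factors is known to raise a set of autophagy genes, and 12 of the members belong to such a set: Atg3, Atg5, Atg7, Atg10, Atg12, Atg16l1, Becn1, Gabarap, Gabarapl2, Map1lc3b, Nbr1 and Sqstm1. In these libraries Atf4 had 453 to 605 CPM in scrambled control and 1050 to 1231 CPM in IFNγR1KO, and Ddit3 had 50.1 to 70.4 CPM and 463 to 608 CPM. Their log2 fold changes were 1.13 (adjusted p = 0.000748) and 3.13 (adjusted p = 4.56e-07). Of the 12 members 1 was called higher, Nbr1 (8.33%, near the 7.73% of all tested genes), and 9 had a log2 fold change above 0, with a median of 0.19. Of the other 25 members 5 were called higher (20%) and 16 were above 0, with a median of 0.087. An unadjusted p under 0.05 in the edgeR test was found for 3 of the 12 and for 7 of the 25. The part of Atf4 and Ddit3 in these levels was not tested.

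A wider view came from 143 other genes of autophagy and the lysosome, of which 131 were tested. Of these 5 were higher (3.82%) and 9 lower (6.87%) in IFNγR1KO, both shares under those of all tested genes (7.73% and 7.62%). Their median log2 fold change was -0.053, and Rragb was the one DEG. Among 23 further genes of the autophagy core 1 rose, Wdr45, a PI3P-binding relative of Wipi1, from 2.60 ± 0.113 to 5.15 ± 1.31 CPM (SD, n = 3, log2 fold change 0.98, adjusted p = 0.0286). Among 15 further receptor genes, Calcoco1, a receptor for the endoplasmic reticulum and Golgi, rose and did not overlap, with 14.8 to 18.2 CPM in scrambled control against 27.1 to 35.0 CPM in IFNγR1KO (log2 fold change 0.92, adjusted p = 0.00255), and Rtn3, another receptor for the endoplasmic reticulum, fell from 151 ± 9.73 to 113 ± 7.32 CPM (log2 fold change -0.42, adjusted p = 0.0446).

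The 33 other lysosomal hydrolase genes had 25 log2 fold changes below 0 and a median of -0.16, beside a median of -0.14 for the 6 hydrolase genes among the members. Of the 33, 3 were called higher (9.09%) and 5 lower (15.2%), against 7.73% and 7.62% of all tested genes. Gusb, Lipa, Galns, Ctsc and Arsb fell. Gusb, which encodes β-glucuronidase, dropped from 209 ± 18.1 to 124 ± 17.5 CPM (log2 fold change -0.76, adjusted p = 0.00481), and Lipa, which encodes lysosomal acid lipase, from 172 ± 1.93 to 112 ± 7.39 CPM (-0.62, adjusted p = 0.00631). Idua and Naglu, which encode enzymes that break down heparan sulfate, rose, Idua from 19.0 ± 1.16 to 30.7 ± 3.64 CPM (log2 fold change 0.69, adjusted p = 0.00910) and Naglu from 209 ± 7.99 to 302 ± 13.9 CPM (0.53, adjusted p = 0.0168). For 11 of the 33 (33.3%) every IFNγR1KO library was below every scrambled control library, against 16.6% of all tested genes, and for 4 (12.1%) every one was above, against 16%.

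None of the 18 tested subunit genes of the V-ATPase, the proton pump that acidifies the lysosome, was called by edgeR's quasi-likelihood test, 1 had an unadjusted p under 0.05, and their median log2 fold change was -0.022. Gnptab, which encodes the enzyme that tags hydrolases with mannose 6-phosphate for delivery to the lysosome, fell from 90.1 ± 10.5 to 49.5 ± 6.17 CPM (log2 fold change -0.86, adjusted p = 0.00214). The lysosomal cation channel gene Tpcn1 also fell, with a log2 fold change of -0.73 (adjusted p = 0.0321). A last list of 15 tested genes held regulators of TFEB and TFE3 together with other transcription factors such as Mitf, Tfec, Foxo1 and Foxo3. Of these Rragb, a GTPase that holds mTOR complex 1 at the lysosome, fell from 6.84 ± 0.911 to 1.86 ± 0.442 CPM (log2 fold change -1.87, adjusted p = 0.000866). The other 14 were not called, though 6 of the 15, Rragb among them, had an unadjusted p under 0.05. For 4 of the 15 (26.7%) every IFNγR1KO library was above every scrambled control library, against 16% of all tested genes. For 1 (6.67%) every one was below, against 16.6%.

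**Figure D4:**
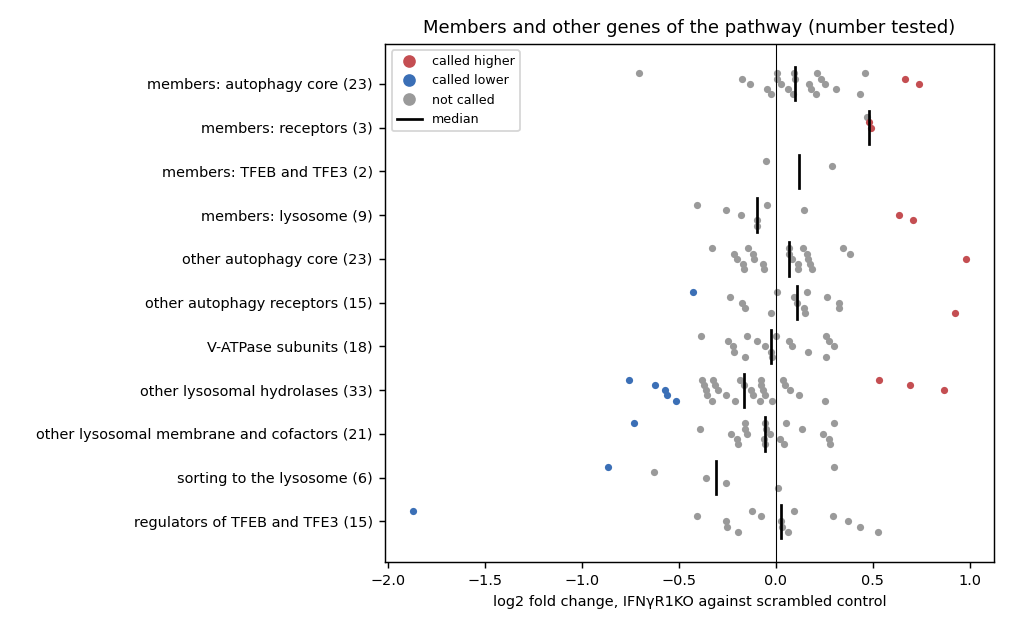
Log2 fold change of every tested gene, IFNγR1KO against scrambled control, with the members in the 4 upper rows and the other genes of the pathway in the 7 lower ones, a black line at each median and called genes in color. Among the members 6 genes were called higher (16.2%) and 0 lower, and among the others 5 were called higher (3.82%) and 9 lower (6.87%). Over all tested genes the shares were 7.73% higher and 7.62% lower. With library totals as the only scaling, the others gave 5 higher and 4 lower.

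The order of the libraries within each group was not even. Scrambled control 3 was the lowest scrambled control library and IFNγR1KO 12 the lowest IFNγR1KO library at once for 11 of the 37 members (29.7%), Map1lc3b, Gabarap, Gabarapl2 and Hexa among them, and both were the highest of their group for 8 members (21.6%). Over all tested genes the shares were 27.8% and 28.7%. The Atg8 genes summed to 515 CPM in scrambled control 3 and 546 CPM in IFNγR1KO 12, against 632 CPM in both of the other scrambled control libraries and 704 and 650 CPM in the other IFNγR1KO libraries. The labels name no batch, and the part of this order in the results was not tested beyond leaving out each library.

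**Figure D5:**
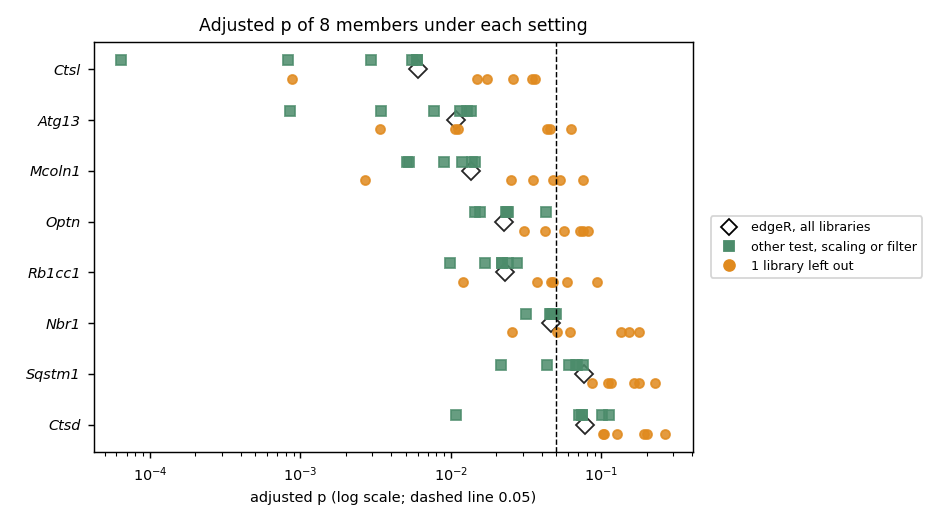
Adjusted p on a log scale for the 8 members with the smallest values, from edgeR on all libraries (diamonds), under other tests, scalings or filters (squares) and with 1 library left out (circles), and a dashed line at 0.05. Every symbol of Ctsl lies below 0.05, whereas for Nbr1 1 of 6 circles and for Optn 2 of 6 circles do.

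Some members share exonic sequence with a gene on the other strand. The strand setting of the counting is not given in the sources used here, so reads of such pairs may not have been told apart. The overlap exceeded 10% of the exonic length for 7 members: Becn1 with Cntd1 (43.9%), Gabarapl1 with 1700101I11Rik (28.3%), Ctsl with Gm47123 (26.8%), Ctsa with Neurl2 and Pltp (17.4%), Sqstm1 with Mrnip (17.3%), Ctsb with Fdft1 (12.8%) and Hexa with Tmem202 (12.8%). Ctsl was the one called gene of the 7. Gm47123 had 0.497 to 0.773 CPM in scrambled control and 1.28 to 2.30 CPM in IFNγR1KO, beside 149 to 288 CPM for Ctsl. It shares 100% of its exonic sequence with Ctsl and Gm49230, so counting without strand on this annotation would set all its reads aside as ambiguous. Gm47123 had 5 to 8 counts in scrambled control and 9 to 17 in IFNγR1KO libraries, which such counting would not give. The annotation release used for the counting is not known, so the strand setting stays unsettled. Its low count was not taken as a measure of how much it was transcribed. Pltp, which overlaps Ctsa, was called higher (log2 fold change 0.70, adjusted p = 0.00533). Of the 30 members with at most 10% overlap on the other strand, 5 were called higher and 0 lower, and their median was 0.13 on the log2 scale. On the same strand, Ctsd shared 34.4% of its exonic length with Gm49369 and Atg9a 31.8% with Gm29253. Both of those genes had 0 counts in every library. Reads in such shared sequence would be ambiguous under any strand setting, so the levels of Ctsd and Atg9a per kilobase may be too low.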

How the data were processed

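Scrambled control (replicates 1 to 3) and IFNγR1KO (replicates 10 to 12) libraries were grouped by their labels. Paired-end reads were mapped by the authors to GRCm38 with STAR 2.7.5a and the raw read counts per gene from htseq-count (HTSeq 0.11.2) were deposited, 1 table per library, without normalization. The annotation release and strand setting are not given in the sources used here. Counts without a gene were left out: 46.9% to 47.7% of a library had no feature, 1.57% to 1.85% were ambiguous and 3.76% to 4.61% aligned more than once. A single count equalled 0.0966 to 0.109 CPM in scrambled control and 0.135 to 0.142 CPM in IFNγR1KO.

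From these deposited counts, R 4.3.3 and Python 3.11.15 were used for all further steps. edgeR 4.0.16 was run with filterByExpr (minimum count 10, minimum total 15), TMM and glmQLFTest, its quasi-likelihood test, and p-values were adjusted by Benjamini-Hochberg over 13642 genes. Adjusted p-values are from this test unless another is named. Symbols, positions and exonic lengths came from GENCODE M21, which holds 55154 of the 55335 identifiers. Intervals are 95%, from the total degrees of freedom of the quasi-likelihood fit. The tests were tested on simulated counts. The alternatives were DESeq2 1.42.0 (Wald), limma-voom (limma 3.58.1), RLE, upper-quartile and library-total scaling, no filter, an adjusted p under 0.01, leaving out each library, and medians without members that overlap a gene on the other strand by more than 10%.

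Values in every library were given for each called member and for Ulk1, Becn1, Map1lc3b, Sqstm1, Tfeb, Lamp1, Ctsd and Mcoln1, and up to 3 called genes per direction with the smallest adjusted p were named from each other list. Arsb and Ctsc were named beyond that rule, after their values were seen, as were Atf4, Ddit3 and the genes that overlap members. A called gene of the other lists is not reported here by name. The members and lists were chosen with earlier results of these data known. No pair of libraries within a group agreed within sampling noise (chi-square per degree of freedom 2.62 to 22.7), so none was treated as a duplicate of another.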

Additional observations from a re-analysis of the deposited data

How the results depend on the processing

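The 37 genes gave 6 calls higher with limma-voom, RLE and upper-quartile scaling and without the filter, the same 6 genes each time. With DESeq2 there were 7 higher and 1 lower, the 6 with Sqstm1 and with Ctsd lower, with library totals only there were 7, and at an adjusted p under 0.01 there was 1, Ctsl. Leaving out 1 library gave 2 to 7 members higher, 0 lower and 0 DEGs: 4 without scrambled control 1, 2 without scrambled control 2, 6 without scrambled control 3, 3 without IFNγR1KO 10, 2 without IFNγR1KO 11 and 7 without IFNγR1KO 12. All tested genes gave 2093 calls in the fit with all libraries, and 1028 to 2824 with 1 library left out. The other pathway genes gave 3 to 7 higher and 3 to 12 lower with 1 library left out, 4 lower with library totals only, and 3 higher and 4 lower at an adjusted p under 0.01, from 5 and 9. The cause of these differences was not tested.

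There were 9 members near 0 that changed sign under some setting, and none of the 9 was called under any setting run. With 1 library left out, Pik3c3 ran from -0.17 to 0.13, Atg9a from -0.14 to 0.095, Wipi1 from -0.0052 to 0.13, Atg7 from -0.21 to 0.099, Map1lc3b from -0.093 to 0.11, Gabarapl2 from -0.18 to 0.13, Tfeb from -0.17 to 0.079, Lamp2 from -0.13 to 0.070 and Gla from -0.15 to 0.015. DESeq2 gave -0.0066 for Atg9a and -0.0033 for Map1lc3b, no filter gave -0.025 and -0.020 for these and -0.0036 for Pik3c3, upper-quartile scaling gave 0.012 for Atg7, and library totals only gave 0.031 for Atg7, 0.0024 for Gabarapl2 and 0.0043 for Tfeb. Scaling moved the median of all tested genes to at most 0.048.

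No paired analysis was possible because the replicate numbers, 1 to 3 and 10 to 12, are not shared between the groups. With 3 libraries a group, and IFNγR1KO libraries the shallower, the intervals reached 0.27 to 0.72 to either side, with a median of 0.33. The widest was that of Map1lc3a, which was not called. The log2 fold changes called were 0.48 to 0.74. Without the members that overlap a gene on the other strand by more than 10%, the median of PI3-kinase complex I was 0.24 in place of 0.10.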
